A study of Mus musculus with 7 samples.

Results

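Binding sites of the glucocorticoid receptor (NR3C1) were compared between wild-type mouse embryonic fibroblasts given dexamethasone for 1 h and the same kind of cells given ethanol vehicle. Embryonic fibroblasts are connective-tissue cells grown from embryos, here taken at day 14 to 17 and used at passage 4 to 11 in serum-containing medium. Occupancy was measured by chromatin immunoprecipitation and sequencing (ChIP-seq) with an antibody made by the submitters. The comparison used 3 of the 7 libraries of the series: dexamethasone 1, dexamethasone 2 and the only wild-type vehicle library, whose material was pooled. The other 4 libraries came from Klf15-/- fibroblasts, with 2 given vehicle and 2 given dexamethasone, and served here as lists that took no part in sorting the sites. The labels name no Cre, transgene or clone. They leave unsaid whether a group's libraries were made from independent cultures, and a difference between them may be technical. The fibroblast label could not be checked, since peak lists hold no expression.

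Each library was represented by a list of peak summits, single base positions with a score from the peak caller. The lists held 10034 summits with vehicle, and 15628 and 16927 with dexamethasone. Summits at most 200 bp apart were joined in a chain into 22703 sites, against 35316 when all 7 lists were joined. A site was called gained when both dexamethasone lists and not the vehicle list held it, kept when all 3 held it, and lost when the vehicle list alone held it. These names describe lists, not amounts of receptor: a summit under the caller's threshold is missing from a list, and read depth is unknown from these files. The scale of the score is not given in the sources used here, so a score was read as a percentile within its own list, from 0 (lowest) to 100 (highest). Positions are mm9, counted from 1. No mm9 sequence or gene annotation was used, so sites carry no gene names and no sequences.

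Without hormone, the receptor is held largely in the cytoplasm by chaperone proteins. A bound glucocorticoid such as dexamethasone, a potent synthetic agonist, moves it into the nucleus. There it binds the paired repeats of the glucocorticoid response element as a dimer, and it also associates with other factors such as AP-1, mostly in chromatin that is already open. In fibroblasts glucocorticoids are known for restraining inflammatory genes and for changing matrix and metabolic genes.

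Of the 22703 sites, 5599 were gained (24.7%), 6389 kept (28.1%) and 2153 lost (9.48%). These shares follow from the sorting rule. The remaining sites were held by 1 dexamethasone list, either with a vehicle summit (1471) or without one (3054 in dexamethasone 1 alone and 4037 in dexamethasone 2 alone). Thus 53.3% of the 11988 sites held by both dexamethasone lists also had a vehicle summit (exact Clopper-Pearson 95% interval 52.4 to 54.2%, covering counting error only). Seen from vehicle, 63.8% of its 10013 sites (62.9 to 64.7%) were kept, 14.7% were held by 1 dexamethasone list and 21.5% (20.7 to 22.3%) were lost. With 2 dexamethasone libraries and 1 vehicle library there are 3 ways to place the vehicle label, so an exact permutation test cannot go below p = 0.333 and no test of treatment is given. The excess of gained over lost sites depended on list length: with each list cut to the 10034 highest-scoring summits, there were 2806 gained and 3571 lost sites. The vehicle list has this length, so the cut took out dexamethasone summits only. By its construction that works toward fewer gained and more lost sites. The number gained also depended on asking for both libraries, being 8653 with dexamethasone 1 alone and 9636 with dexamethasone 2 alone.

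**Figure D1:**
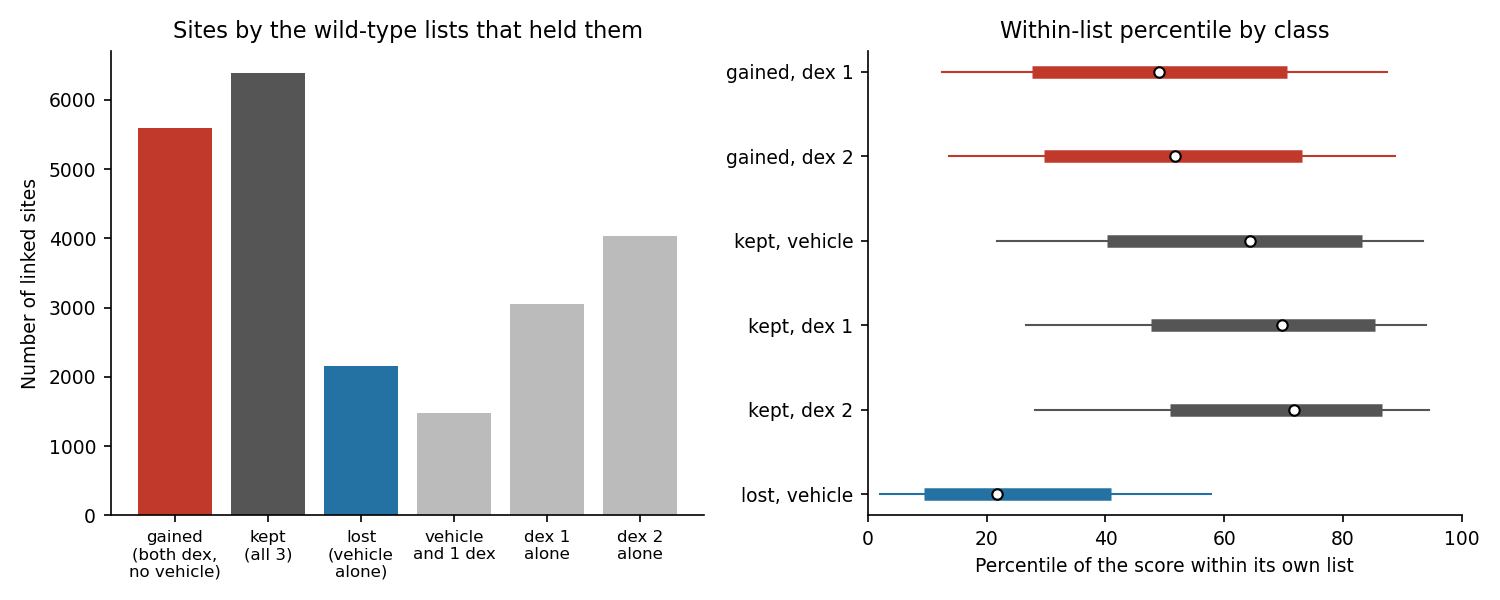
Left, the number of linked sites in each combination of the 3 wild-type lists. Right, the percentile of the score within its own list for each class and list (circle, median; thick bar, quartiles; thin line, 10th to 90th percentile); kept sites have medians of 64.4 to 71.8 and lost sites a median of 21.7.

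Gained sites covered the whole range of scores, kept sites leaned to the upper part and lost sites to the lower part. Gained sites had a median percentile of 49.0 in dexamethasone 1 (quartiles 27.6 and 70.7) and 51.7 in dexamethasone 2 (29.6 and 73.1). Kept sites had medians of 69.7 and 71.8 in the same lists and 64.4 in the vehicle list. Lost sites had a median of 21.7 in the vehicle list (quartiles 9.47 and 40.9), and 13 of them stood above percentile 90. Sites seen in 1 dexamethasone list alone were also low, with medians of 20.5 and 23.6. The scores had many ties, the largest covering 6.88% of the vehicle list. Because a class defined by a missing summit takes in weak sites, these values describe the classes and were not tested.

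The share of dexamethasone sites without a vehicle summit did not go down steadily with rank, whereas the share of vehicle sites without a dexamethasone summit did. The sites held by both dexamethasone lists were ordered by mean percentile and split into 10 bins of equal size. The lowest bin was 72.3% gained (69.7 to 74.8%). The share went down to 27.4% (24.8 to 30.0%) in the bin below the top and stood at 30.4% (27.8 to 33.1%) in the top bin, with overlapping intervals. Among sites above percentile 99 in both lists, 52 of 135 were gained (38.5%, 30.3 to 47.3%), against 358 of 1283 with their lower percentile between 80 and 90 (27.9%, 25.5 to 30.4%). Between 90 and 95 the share was 25.96% (22.6 to 29.6%), and between 95 and 99 it was 32.9% (28.8 to 37.2%). In the vehicle list, 54.3% of the lowest bin was lost, 15.2% of the bin just above the median and 1.30% (0.693 to 2.21%) of the top bin. None of the 100 vehicle sites above percentile 99 was lost, which allows a share of up to 3.62%.

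The Klf15-/- lists were sorted in the same way with 2 vehicle lists. Their share also levelled off in the highest bins, but unlike that of wild type it went down at every bin. There, 8311 of 14755 sites held by both dexamethasone lists had no vehicle summit (56.3%). The share went from 85.1% in the lowest bin to 30.5% in the bin below the top and 30.0% in the top bin. Above percentile 80 in both lists it was 30.7% (29.1 to 32.4%) and above percentile 99 it was 39.6% (32.2 to 47.4%). Above percentiles 90 and 95 it was 29.9% and 32.9%. The wild-type shares above percentiles 80, 90 and 95 were 29.0%, 30.1% and 34.1%. Against the first or the second Klf15-/- vehicle list alone, the Klf15-/- share was 48.5% and 34.6% above percentile 80. Above percentile 99 it was 51.5% (43.7 to 59.2%) and 44.4% (36.8 to 52.2%).

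**Figure D2:**
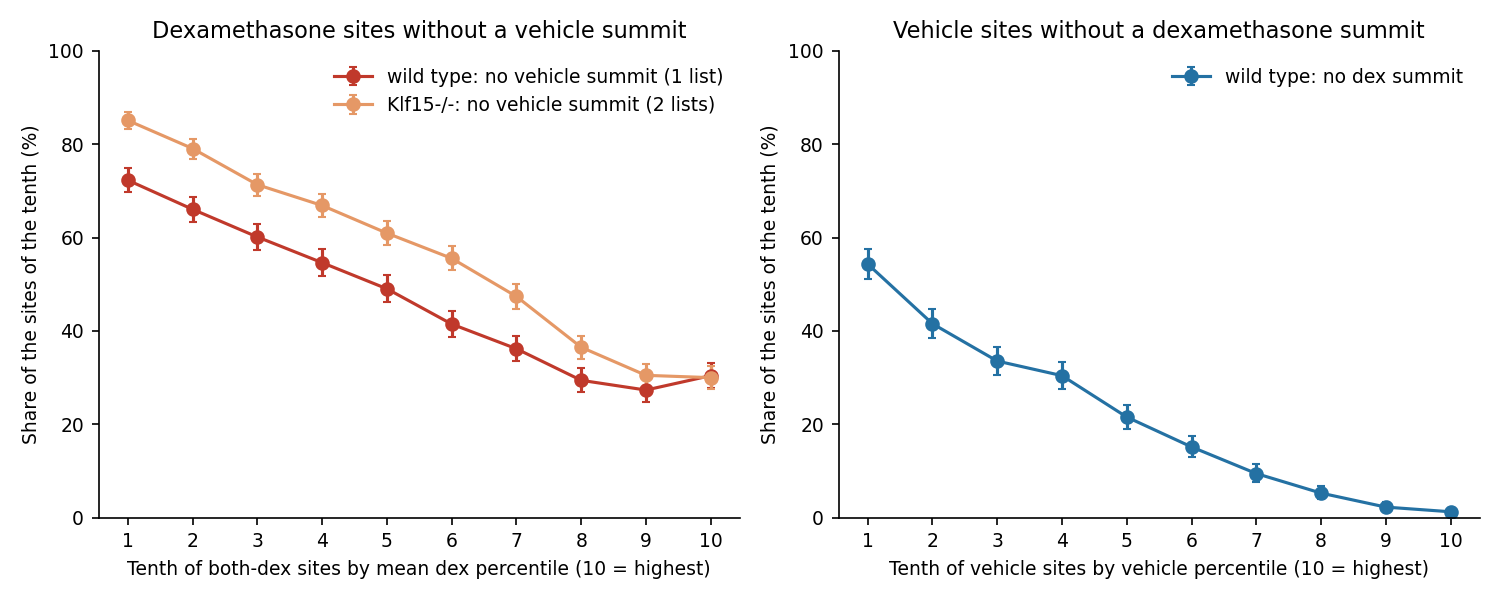
Left, share of the sites held by both dexamethasone lists that had no vehicle summit, in 10 bins of mean dexamethasone percentile, for wild type (1 vehicle list) and Klf15-/- (2 vehicle lists). Right, share of wild-type vehicle sites with no dexamethasone summit, in 10 bins of vehicle percentile; bars are exact 95% intervals, and the left curves level off near 30% while the right one ends at 1.30%.

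The gained sites ranked highest, by the lower of their percentiles, were near the top of both lists. The site on chromosome 10 from 24116053 to 24116059 stood at percentile 99.96 in each dexamethasone list, and the nearest vehicle summit was 1.13 kb away. The site on chromosome 7 from 71041946 to 71041949 stood at 99.87 and 99.95, with the nearest vehicle summit 5.42 kb away. The site on chromosome 15 from 51562487 to 51562496 stood at 99.86 and 99.88. In all 3 the summits of the dexamethasone lists lay within a few bases of each other. The other 7 of the top 10 were chr5:91182905-91182911, chr15:83057112-83057121, chr17:28557288-28557305, chr15:78962076-78962099, chr16:25059491-25059494, chr16:52094947-52094959 and chr15:103198713-103198719. Of these 10 sites, 8 had a vehicle summit within 50 kb. The exceptions were chromosome 17, at 379 kb, and the site at 78962076 on chromosome 15, at 262 kb. All 10 were held by both Klf15-/- dexamethasone lists (51.2% of all sites were), at percentile 99.3 or above. Of the 10, 2 had a Klf15-/- vehicle summit, as did 29.8% of all sites.

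Some high-ranked gained sites were far from any vehicle summit. Among the 380 gained sites above percentile 90 in both lists, the one farthest from a vehicle summit was on chromosome 12, from 93117503 to 93117512, at percentiles 99.4 and 99.1. Its nearest vehicle summit was 1698 kb away and the nearest other gained site 2183 kb away. The next were chr5:121230185-121230193 at 1524 kb from a vehicle summit, chr8:17565080-17565088 at 1114 kb and chr2:25552820-25552826 at 797 kb. The fifth was on chromosome 5 at 142856562, at percentiles 90.9 and 90.9, and 713 kb from a vehicle summit. The fourth and the fifth of these lay 163 kb and 66.5 kb from another gained site. These 5 sites were held by both Klf15-/- dexamethasone lists and by neither Klf15-/- vehicle list, as were 26.6% of all sites.

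The highest-ranked kept sites were close to the top of every list. They were chr9:35112981-35112987, chr12:3109975-3110012, chr18:90771749-90771781, chr6:103599202-103599216 and chr2:181747703-181747779. Their lowest percentile in a wild-type dexamethasone list was 99.97, and all 4 Klf15-/- lists held all 5. The Klf15-/- vehicle lists held 16.5% and 25.6% of all sites and the dexamethasone lists 60.0% and 60.0%. Of kept sites with a mean dexamethasone percentile above 90, the shares were 71.7%, 85.9%, 98.7% and 99.2% in the same order. The control library of the peak calling is not given in the sources used here. Signal of the receptor and signal that does not depend on it cannot be told apart at sites of this kind.

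Within the kept class the order of the sites differed more between vehicle and dexamethasone than between the dexamethasone libraries. Over the 6389 kept sites, Spearman's rho was 0.80 between the dexamethasone lists, and 0.51 and 0.53 between the vehicle list and dexamethasone 1 and 2. These are descriptions across sites, which share libraries and are not replicates. With 1 vehicle library, treatment cannot be told apart from what is particular to that library. Ranked again among the kept sites alone, so that all lists had the same length, a site's rank differed by a median of 10.2 percentile points between the dexamethasone lists. Between vehicle and each dexamethasone list the median difference was 17.2 points. Of the 500 kept sites in the top 10% of both dexamethasone lists, 267 (53.4%) were in the top 10% with vehicle and 94 (18.8%) were in the lower 50% with vehicle. Of the 639 in the top 10% of dexamethasone 1, none was in the lower 50% of dexamethasone 2. In the other direction, 14 of the 638 sites in the top 10% with vehicle (2.19%) were in the lower 50% of both dexamethasone lists. This asks for a low rank in 2 lists and the 18.8% for a low rank in 1, so the shares cannot be compared directly.

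Kept sites at the extremes of this order were named by the difference between the mean dexamethasone percentile and the vehicle percentile. The site on chromosome 9 from 49402534 to 49402618 stood at percentile 2.08 with vehicle and at 99.3 and 99.3 with dexamethasone. The site on chromosome 9 from 96659474 to 96659586 stood at 2.08 with vehicle and at 98.1 and 97.2 with dexamethasone. The others with dexamethasone far above vehicle were chr15:74829550-74829602, chr19:40506695-40506754 and chr7:116705446-116705609. All 5 were held by both Klf15-/- dexamethasone lists, at percentile 90.7 or above, beside 51.2% of all sites. Of the 5, 1 had a Klf15-/- vehicle summit, beside 29.8% of all sites. At the opposite end, the site on chromosome 5 from 16975885 to 16975981 stood at 93.1 with vehicle and at 9.29 and 18.7 with dexamethasone. The site on chromosome 3 from 147458202 to 147458354 stood at 75.4 with vehicle and at 2.99 and 5.00 with dexamethasone. The others were chr1:151693902-151693960, chr15:86025335-86025612 and chr15:12376779-12376841. Of these 5, 4 had a Klf15-/- vehicle summit and 3 were held by both Klf15-/- dexamethasone lists, beside the same 29.8% and 51.2% of all sites.

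The Klf15-/- lists, which had no part in this ordering, held different shares of its ends and its middle. In the 10% of kept sites with dexamethasone rank farthest above vehicle rank, 93.6% and 95.3% were held by the Klf15-/- dexamethasone lists and 23.0% and 42.7% by the Klf15-/- vehicle lists. In the 10% with vehicle rank farthest above, the shares were 78.7% and 81.7% for dexamethasone and 41.1% and 58.3% for vehicle. The vehicle shares were highest in the middle of the order, at 53.8% and 67.9% in the 10% just below the median difference. Of all sites, the dexamethasone lists held 60.0% and 60.0% and the vehicle lists 16.5% and 25.6%. Median ranks also differ between these sets, at 73.5 and 24.02 among kept sites for dexamethasone and 17.4 and 69.5 for vehicle. What part rank alone has in these shares was not tested. Kept sites of the first set also lay nearer to a gained site, with a median distance of 39.7 kb against 85.0 kb.

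Within kept sites, summits lay about as close between treatments as between the dexamethasone libraries, inside the limit set by the 200 bp joining rule. Vehicle and dexamethasone summits farther apart than the rule allows were sorted as separate sites. The distances therefore cannot show whether placement changed with treatment. The median distance between the summits of the dexamethasone libraries was 36 bp in kept and 38 bp in gained sites. Between a dexamethasone and the vehicle summit of a kept site it was 41 bp and 40 bp. The distance was shorter at strong sites: for gained sites above percentile 90 in both lists it was 18 bp, and for those below percentile 50 in both it was 50 bp. For kept sites between the dexamethasone lists it was 22 bp and 52 bp in the same ranges. The largest distance between a dexamethasone and the vehicle summit in a kept site was 389 bp, since a chain of summits can be longer than 200 bp.

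Gained sites were spread around vehicle sites mostly at distances of many kilobases. The median distance from a gained site to the nearest vehicle summit was 32.8 kb (quartiles 9.25 and 99.2 kb). Of the gained sites, 5.34% had a vehicle summit within 1 kb, 26.4% within 10 kb and 59.5% (58.2 to 60.7%) within 50 kb. Over 5 bins of mean dexamethasone percentile, from 55.9% to 61.7% had a vehicle summit within 50 kb. The median distance to the nearest kept site was 53.4 kb, close to the 50.4 kb to the nearest other gained site. Gained sites of higher score lay nearer to other gained sites, with a median of 37.2 kb in the highest bin and 56.4 kb in the lowest. These distances depend on how many sites each class holds.

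Kept sites were the most closely spaced class and lost sites the most scattered, in the order of their numbers. The median distance to the nearest site of the same class was 37.7 kb for kept, 50.4 kb for gained and 268 kb for lost sites. In all, 55.9% of kept sites (54.7 to 57.2%) had another kept site within 50 kb and 46.2% (45.0 to 47.4%) had a gained site there. For gained sites, the shares were 49.8% (48.5 to 51.2%) with another gained and 48.5% (47.2 to 49.9%) with a kept site. Of 4016 windows of 100 kb with a gained site, 1715 (42.7%) also had a kept site.

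**Figure D3:**
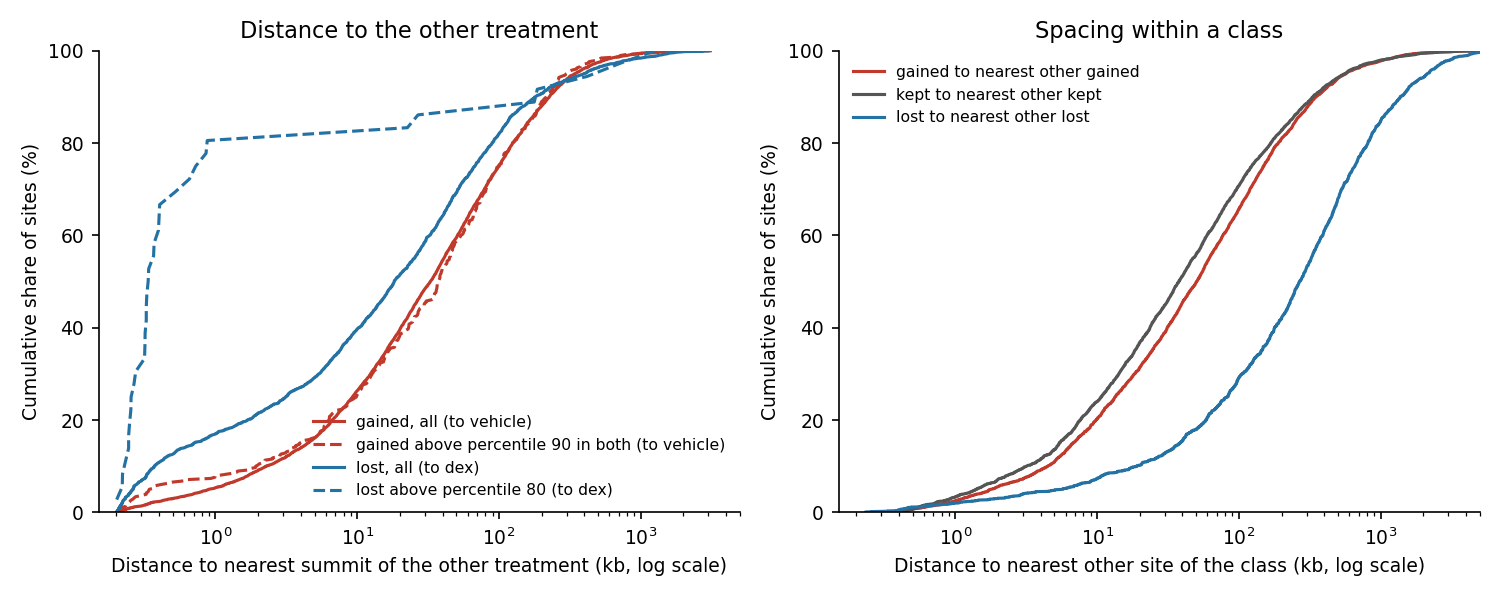
Left, cumulative share of gained sites by distance to the nearest vehicle summit and of lost sites by distance to the nearest dexamethasone summit (log scale, kb), with the high-percentile sites of each class dashed. Right, cumulative share by distance to the nearest other site of the same class; among lost sites above percentile 80, 80.6% lie within 1 kb of a dexamethasone summit, against 17.0% of all lost sites.

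Gained sites also came in dense groups, as did kept sites. Windows of 100 kb with 1 gained site numbered 2902, with 2 785, with 3 224, and with at least 6 there were 4. Windows with 5 sites of a class numbered 25 for gained, 36 for kept and 3 for lost sites. With 6 sites there were 3, 7 and 2. The number expected by chance was not computed. The window with the most gained sites, on chromosome 2 from 167600001 to 167700000, held 8 gained and 3 kept sites. Its gained sites included those at 167670255 (percentiles 99.02 and 98.8), 167677293 (98.9 and 98.8) and 167686232 (96.2 and 97.2), and also weak ones such as that at 167653995 (7.31 and 29.6). The next windows each held 6 gained sites. Those on chromosome 1 (74000001 to 74100000) and on chromosome X (137000001 to 137100000) had no vehicle summit of any kind. The window on chromosome 3 (126000001 to 126100000) had 2 kept and 1 lost site beside them. The 6 gained sites of the chromosome X window stood between percentiles 68.0 and 98.8, and all 6 were held by both Klf15-/- dexamethasone lists and no Klf15-/- vehicle list, as were the 6 of the chromosome 1 window and 26.6% of all sites. On chromosome 2, 7 of the 8 gained sites were held by both Klf15-/- dexamethasone lists and 1 had a Klf15-/- vehicle summit. On chromosome 3, 4 of the 6 were held by both and 3 had a Klf15-/- vehicle summit. The window on chromosome 1 from 154900001 to 155000000 came next, with 5 gained and 2 kept sites, a count it shared with other windows.

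Most strong lost sites were next to a dexamethasone summit. The share of all vehicle sites of that rank with a separate dexamethasone summit so near is not given here. Of the 13 lost sites above percentile 90, 12 had a dexamethasone summit within 1 kb, and so did 29 of 36 above percentile 80 (80.6%, 64.0 to 91.8%). Among lost sites at or below percentile 50, 13.8% (12.2 to 15.4%) did. Gained sites had a vehicle summit within 1 kb in 7.89% (5.39 to 11.1%) above percentile 90 in both lists and in 4.69% (4.02 to 5.44%) with their lower percentile at or below 50. Over 5 bins of mean dexamethasone percentile this share was 7.14% (5.70 to 8.81%) in the highest and between 4.20% (3.10 to 5.54%) and 5.63% in the others. On either side of the 200 bp limit, the kept site on chromosome 4 from 150158979 to 150159221 had its vehicle and nearest dexamethasone summits 200 bp apart, at percentiles 88.2, 99.8 and 99.9. The gained site on chromosome 17 from 64010613 to 64010681, at 98.2 and 98.7, lay 202 bp from the lost site at 64010411, at 43.3. Between 200 and 300 bp there were 78 gained and 148 lost sites.

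Of the top 10 lost sites, 9 had a dexamethasone summit within 1 kb. On chromosome 13, vehicle summits at 74666732 (percentile 98.9) and 74667126 (93.5) formed a row with a dexamethasone 2 summit at 74666328 and the kept sites at 74667522 and 74667994. As at the highest-ranked kept sites, signal of the receptor and signal that does not depend on it cannot be told apart there. On chromosome 5, the lost site at 91183185 (93.8) lay 274 bp from the gained site at 91182905, the fourth-ranked of its class. On chromosome 4, the lost site at 150173851 (95.5) lay 335 bp from the gained site at 150174186 (99.1 and 98.9). The others near a dexamethasone summit were on chromosome 18 (79664079, percentile 96.9), chromosome 13 (118447993, 95.9), chromosome 2 (181665152, 95.8), chromosome 9 (3037163, 93.8) and chromosome 10 (7229536, 93.2). The lost site on chromosome 17 at 4626325 (93.8) was the exception, 419 kb from the nearest dexamethasone summit. All 10 had a Klf15-/- vehicle summit, as did 29.8% of all sites. A Klf15-/- dexamethasone summit was present at 5 of them, and 1 was held by both lists, beside 51.2% of all sites.

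Lost and gained sites stood within 1 kb of each other in 149 cases, with a median gap of 302 bp. Where the Klf15-/- lists held 1 position of such a pair, the dexamethasone lists mostly held the gained one. Klf15-/- dexamethasone 1 had a summit nearer the gained position alone in 101 pairs and nearer the lost position alone in 22, and dexamethasone 2 in 107 and 20. The same lists held 72.3% and 71.9% of all gained sites and 23.1% and 22.7% of all lost sites. Whether the pairs differ from their classes was not tested. The Klf15-/- vehicle lists were even, with 22 and 17 in the first and 35 and 35 in the second. Among the 19 pairs with the lost site above vehicle percentile 80, the second Klf15-/- vehicle list held the lost position alone in 11 and the gained one alone in 4. The Klf15-/- dexamethasone lists held the gained position alone in 13 and 12 of these pairs and the lost one alone in 5 and 5. The first Klf15-/- vehicle list held both positions in 10 of the 19.

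Gained sites were held more often by the Klf15-/- dexamethasone lists than by the Klf15-/- vehicle lists, at shares that depended on list length. The Klf15-/- dexamethasone lists held 72.3% and 71.9% of gained sites within 200 bp, 87.1% and 88.1% of kept sites and 23.1% and 22.7% of lost sites, beside 60.0% and 60.0% of all 22703 sites. The Klf15-/- vehicle lists held 6.52% and 14.0% of gained, 40.1% and 58.4% of kept and 10.2% and 12.4% of lost sites, beside 16.5% and 25.6% of all sites. Gained and lost sites were thus under the share of all sites in both vehicle lists. Both Klf15-/- dexamethasone lists held 63.4% of gained sites (62.1 to 64.7%), beside 51.2% of all sites. This share was 29.5% with the Klf15-/- lists cut to equal length, and 49.96% and 47.9% when gained was called from wild-type dexamethasone 1 or 2 alone. No Klf15-/- list held 18.5% of gained (17.5 to 19.5%), 6.53% of kept (5.93 to 7.16%) and 61.4% of lost sites (59.3 to 63.5%), beside 29.0% of all sites. A Klf15-/- vehicle list held 17.1% of gained, 64.0% of kept and 18.3% of lost sites, beside 29.8% of all sites. Both Klf15-/- dexamethasone lists and no Klf15-/- vehicle list, the pattern of a gained site, held 49.0% of gained, 23.0% of kept and 7.43% of lost sites, beside 26.6% of all sites. Both dexamethasone lists together with a vehicle list held 14.4%, 59.7% and 6.69% of the same classes, beside 24.5% of all sites. Neither Klf15-/- dexamethasone list held 19.3% of gained, 7.48% of kept and 68.3% of lost sites, beside 31.2% of all sites.

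The Klf15-/- lists differed in length, and the order of the lists for lost sites turned when they were cut. They held 7325 and 8088 summits with vehicle, and 19999 and 20169 with dexamethasone. In a comparison chosen after the values were seen, each Klf15-/- list was cut to its 7325 highest-scoring summits. This left the first vehicle list whole. Lost sites had median percentiles of 36.2 and 38.6 in the dexamethasone lists, so the cut by its construction took out most of them there. The turn is therefore no evidence on treatment. The vehicle lists then held 10.2% (8.93 to 11.5%) and 11.0% (9.67 to 12.4%) of lost sites, and the dexamethasone lists 4.46% (3.63 to 5.42%) and 4.13% (3.33 to 5.06%). Of all sites, the lists of equal length held 16.5%, 24.1%, 29.4% and 29.6% in the same order. Gained sites kept their order, with 6.52% and 12.3% in the vehicle and 36.8% and 37.0% in the dexamethasone lists. Kept sites had 40.1% and 56.0% with vehicle and 58.1% and 58.5% with dexamethasone.

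**Figure D4:**
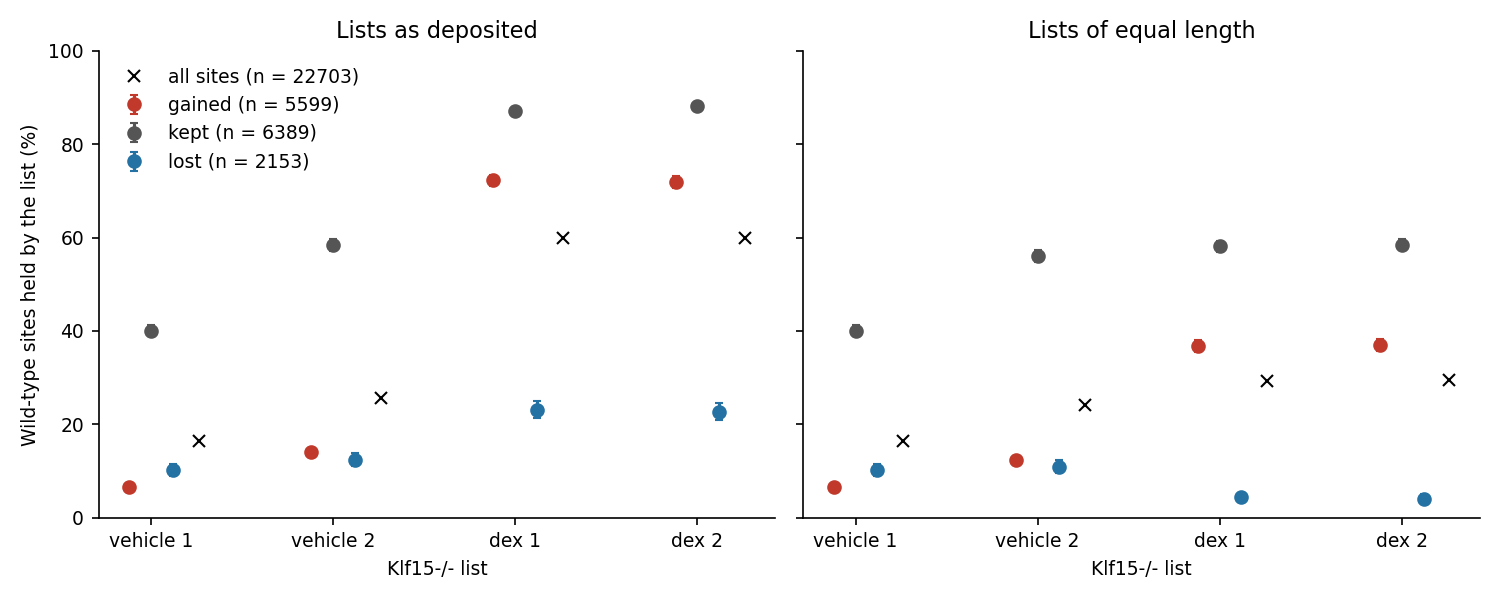
Share of wild-type gained, kept and lost sites, and of all sites (crosses), with a summit of each Klf15-/- list within 200 bp, for lists as deposited (left) and cut to equal length (right); bars are exact 95% intervals. Lost sites stand higher in the dexamethasone lists on the left (23.1% and 22.7%) and lower on the right (4.46% and 4.13%).

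Among gained sites, those of high rank were held most often by the Klf15-/- dexamethasone lists, and the same was true among kept sites. Of the 443 gained sites with a mean dexamethasone percentile above 90, both Klf15-/- dexamethasone lists held 96.2% (93.9 to 97.7%), and a Klf15-/- vehicle list held 13.5% (10.5 to 17.1%). The shares of all sites were 51.2% and 29.8%. Of the 1049 kept sites in that range, the shares were 98.3% (97.3 to 98.98%) and 88.6% (86.5 to 90.4%). At mean percentile 50 or below, both dexamethasone lists held 48.4% (46.5 to 50.2%) of 2963 gained and 63.3% (61.0 to 65.6%) of 1692 kept sites. A Klf15-/- vehicle list held 16.6% (15.3 to 18.03%) and 44.5% (42.1 to 46.9%) of these. The share of kept sites with a Klf15-/- vehicle summit was thus higher at high dexamethasone rank, while that of gained sites was not. With the Klf15-/- lists cut to equal length, each dexamethasone list held 93.0% of gained sites above mean percentile 90. For kept sites it was 96.2% and 96.7%. At 50 or below, the cut lists held 17.6% and 17.9% of gained and 24.4% and 26.3% of kept sites. Uncut, they held 60.3% and 59.5% of these gained sites. The cut lists held 29.4% and 29.6% of all sites.

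Gained and kept sites were spread over the chromosomes in much the same way. On chromosome 10, which held the most gained sites, there were 7.79% of gained (7.10 to 8.52%), 7.75% of kept and 7.29% of lost sites. Chromosome 18 held 3.09% of gained (2.65 to 3.58%), 4.19% of kept (3.72 to 4.72%) and 2.69% of lost sites (2.05 to 3.47%). Of its sites held by both dexamethasone lists, 39.2% (34.6 to 44.0%) were gained, against 46.7% over all chromosomes. In Klf15-/- cells 50.5% (46.2 to 54.7%) of such sites on chromosome 18 had no vehicle summit, against 56.3% over all. Leaving aside M, with 3 gained and 2 kept sites, the share of gained sites was highest on chromosome X, with 53.2% (46.1 to 60.2%), and on chromosomes 12 (51.0%, 46.3 to 55.6%) and 11 (50.8%, 46.8 to 54.8%). In Klf15-/- cells chromosome X was under the overall share, with 50.6% (44.9 to 56.3%). Lost sites were more frequent on X, with 2.97% (2.30 to 3.78%) against 1.503% of kept sites (1.22 to 1.83%). Chromosome Y had 3 sites in the wild-type lists, 1 of them kept, whereas 52 sites on Y had summits in both Klf15-/- dexamethasone lists and a Klf15-/- vehicle list. The part of this difference between the genotypes in the chromosome X values was not tested. Sites of a chromosome are not independent, chromosome 18 was singled out after its values were seen, and no test was made.

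**Figure D5:**
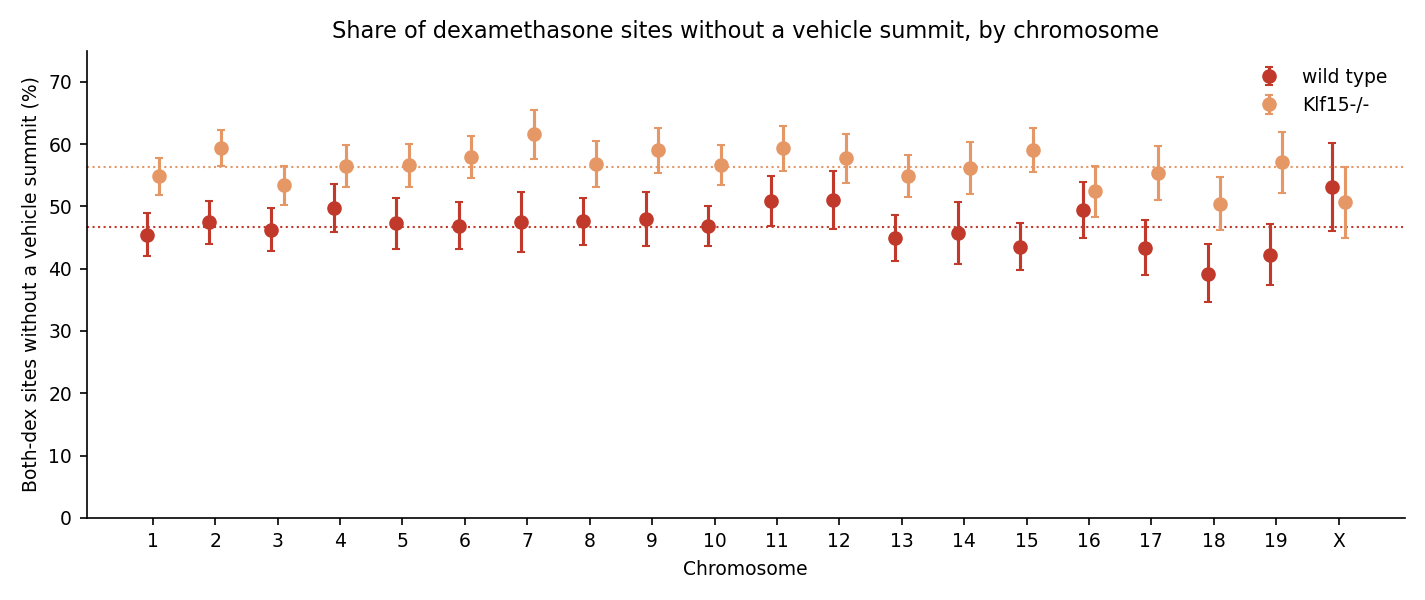
Share of the sites held by both dexamethasone lists that had no vehicle summit, per chromosome, in wild type and Klf15-/- (points; bars, exact 95% intervals; dotted lines, share over all chromosomes, 46.7% and 56.3%). Chromosome 18 lies under the dotted line in both genotypes; chromosomes Y and M, with 3 and 13 sites, are left out.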

How the data were processed

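The members and lists were chosen with earlier results of these data known. Per the submitters' processing notes, the tools were CASAVA 1.4, Bowtie2 and SAMtools, with mm9 as the build. Which program called the peaks, against which control and at what cutoff, is not given in the sources used here. The deposited files are summit lists called per library, with a score from the authors' peak caller on an unstated scale, used only for percentiles (mid rank for ties) within a list. Read depth is unknown, so no interval covers it; intervals are exact 95% binomial ones. Groups came from the sample titles. Summits of the 3 wild-type lists were joined by single linkage (gap at most 200 bp); distances run from the edge of a site. A Klf15-/- list held a site when it had a summit within 200 bp of it. Named sites were the top 10 gained, 5 kept and 10 lost by percentile, the 5 at each end of the kept order, the 5 gained sites above percentile 90 farthest from a vehicle summit and the 5 fullest windows of 100 kb. Planned work on sequence motifs and gene loci needs mm9 and was not run. The linkage was tested on simulated lists. Computing used scipy 1.17.1 and pandas 2.3.3 in Python 3.11.15, with numpy 2.4.6 and, for plots, matplotlib 3.10.9. Alternatives changed the gap, score filter, list length, chromosomes, dexamethasone libraries and vehicle definition.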

Additional observations from a re-analysis of the deposited data

How the results depend on the processing

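Over 15 results and their alternatives, 152 values were recomputed. Of these, 70 moved and 82 did not. A share moved when it left its counting interval, and a count when it changed by over 1.5 times. The gained and kept median percentiles moved when they changed by more than the standard deviation of the medians of the 2 dexamethasone libraries. For the lost median the limit was a 95% binomial interval of the median. The shares of gained sites above percentile 99 and of kept sites on chromosome 18 moved under none. The first rests on 135 sites with an interval of 30.3 to 47.3%, and ran from 33.3% with any of the 3 vehicle libraries to 46.7% with summits above the median score. Changes of that size do not count as moves, so its stability is not shown. No paired analysis was possible because the wild-type vehicle group has only number 1 and the classes come from no test. The cause of a move was not tested beyond what each alternative's construction fixes, such as fewer summits or fewer lists. Read depth is unknown and wild-type vehicle is 1 library, so a missing summit and an absent site cannot be told apart.

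Leaving out each dexamethasone library in turn gave 8653 to 9636 gained sites, 6966 to 7283 kept sites and 2730 to 3047 lost sites, since 1 list then decides. Sites held with dexamethasone had a vehicle summit in 43.0 to 44.6%. Median percentiles were 36.8 to 37.0 (gained), 66.6 to 67.8 (kept) and 21.7 to 27.0 (lost). Gained sites had a vehicle summit within 50 kb in 58.1 to 58.7% and another gained site there in 59.7 to 61.7%. They were in both Klf15-/- dexamethasone lists in 47.9 to 49.96% and in a Klf15-/- vehicle list in 14.5 to 15.3%, and 20.04 to 22.9% of lost sites were in both Klf15-/- dexamethasone lists. Counting a site held by either dexamethasone library gave 12690 gained sites, a vehicle summit in 38.2%, medians of 36.9 (gained) and 67.2 (kept), 57.9% and 69.5% with a vehicle summit or another gained site within 50 kb, and 42.5% and 13.9% of gained sites in both Klf15-/- dexamethasone lists or a Klf15-/- vehicle list.

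With summits above the median score, there were 2972 gained, 3145 kept and 1010 lost sites, with medians of 76.5, 84.0 and 63.1 and a vehicle summit in 51.4%. Gained sites then had a vehicle summit within 50 kb in 41.9%, another gained site in 36.7% and chromosome 18 in 3.80%. They were in both Klf15-/- dexamethasone lists in 84.9% and in a Klf15-/- vehicle list in 26.3%, and lost sites in both Klf15-/- dexamethasone lists in 41.9%. In wild-type lists of equal length, the 2806 gained and 3571 lost sites came with medians of 70.8 (gained), 78.8 (kept) and 27.4 (lost), a vehicle summit in 62.9% and another gained site within 50 kb in 36.7%. The Klf15-/- shares were 78.5% and 18.2% of gained sites and 24.95% of lost sites. With only the Klf15-/- lists cut, an alternative chosen after seeing the data, they were 29.5%, 15.8% and 1.72%.

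A linkage gap of 100 bp gave a vehicle summit in 51.2%, medians of 53.8 (gained), 72.3 (kept) and 26.2 (lost), and 62.5% of gained sites with a vehicle summit within 50 kb. The Klf15-/- shares were 65.5% and 19.5% of gained and 23.6% of lost sites. With no summit of the other treatment within 1000 bp, the share with a vehicle summit was 54.7%, and 57.2% and 47.9% of gained sites had a vehicle summit or another gained site within 50 kb. With any of the 3 vehicle libraries of both genotypes, 6745 sites were lost and 61.4% had a vehicle summit. The kept median was 68.1, the shares within 50 kb were 69.7% and 45.3%, and 59.1% of gained and 17.3% of lost sites were in both Klf15-/- dexamethasone lists. No result moved with a gap of 500 bp or on autosomes alone.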
